A study of Mus musculus with 56 samples.

Results

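The genes described here are 33 genes of the lysosome, chosen by name from 20352 gene names in the peak lists: the proteases Ctsa, Ctsb, Ctsc, Ctsd, Ctsh, Ctsk, Ctsl, Ctss, Ctsz, Lgmn and Tpp1, the hydrolases of sugars and lipids Gaa, Gla, Glb1, Gusb, Hexa, Neu1, Man2b1, Lipa, Asah1 and Smpd1, the luminal proteins Psap, Npc2 and Grn, the membrane proteins Lamp1, Lamp2, Cd63, Cd68, Scarb2, Mcoln1 and Npc1, and the transcription factors Tfeb and Tfe3. The peaks analysed were all those the lists annotate to 1 of these names, 5943 of 1610519 peaks (0.369%), and 10 of the 33 genes had a peak in all 56 lists. The lists come from ChIP-seq of WT mouse bone marrow-derived macrophages (BMDMs) from mice aged 8 to 12 weeks, which were differentiated for 6 days with L929 supernatant, a source of M-CSF, and crosslinked with DSG and formaldehyde. In the IL-4 set, untreated BMDMs were compared with BMDMs given IL-4 (20 ng/ml) for 1 hr for the antibodies RNAPII-pS5, RNAPII-pS2, H3K27Ac, p300, PU.1, HDAC1, HDAC2, and HDAC3. In the LPS set, RNAPII-pS5, RNAPII-pS2, and p65 were measured in 4 groups: ctrl/ctrl, with neither agent, IL-4 PT/ctrl, with 24 hr of IL-4 at the same dose, ctrl/LPS, with LPS (100 ng/ml) for 1 hr, and IL-4 PT/LPS, with LPS for 1 hr after IL-4 for 24 hr. Each group had 2 samples per antibody.

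Lysosomes are acidic organelles in which hydrolases break down proteins, lipids, and sugars, and macrophages use them to digest what they take up. TFEB and TFE3 are transcription factors that bind an E-box motif in the promoters of lysosomal genes, and they are held in the cytoplasm while nutrients are plentiful. IL-4 drives alternative polarization through STAT6. LPS activates Toll-like receptor 4 and brings p65, the transactivating subunit of NF-κB, to chromatin. RNAPII-pS5 and RNAPII-pS2 are the initiating and elongating forms of RNA polymerase II, H3K27Ac marks active promoters and enhancers, p300 is an acetyltransferase that deposits it, PU.1 is the lineage factor of macrophages, and HDACs remove acetyl groups.

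The E-box of the TFEB family has the letters CACGTG, and its longer form has GTCACGTG or, on the other strand, CACGTGAC. The 250 bases upstream of the start were held for 29 of the 33 genes in the RefSeq promoter table (GRCm38.p6). Asah1, Ctsb, Ctsh, and Npc1 are not in it. The longer form was found, on either strand, in 7 of the 29 genes (24.1%) and in 607 of 32851 promoters of all genes (1.85%), and CACGTG alone, which the longer form contains, in 9 of the 29 (31%) and in 1978 of all promoters (6.02%). The other 2 genes were Ctsl and Gaa. The shares differ in unit. The 29 genes, which have 35 promoters, were counted by gene, and all genes were counted by promoter. A gene with more than 1 promoter has more chances of a match. A second list of 74 lysosomal genes, among them subunits of the proton pump, gave a share of 18.6% for the longer form, or 11 of 59 genes with a promoter in the table. Matches in the 7 promoters follow, each with up to 40 bases on either side, read 5′ to 3′ along the gene, with the longer E-box in capitals. They show how the letters around a shared core differ between the genes. Ctsd and Mcoln1 held 2 matches each, of which 1 is shown.
Ctsa, chr2:164833719-164833772, plus strand: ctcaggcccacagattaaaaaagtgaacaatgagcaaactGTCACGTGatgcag
Ctsd, chr7:142387878-142387965, minus strand: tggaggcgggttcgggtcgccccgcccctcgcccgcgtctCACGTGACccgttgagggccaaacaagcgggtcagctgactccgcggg
Gla, chrX:134601154-134601241, minus strand: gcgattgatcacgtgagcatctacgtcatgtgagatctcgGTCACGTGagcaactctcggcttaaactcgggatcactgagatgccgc
Glb1, chr9:114400988-114401075, plus strand: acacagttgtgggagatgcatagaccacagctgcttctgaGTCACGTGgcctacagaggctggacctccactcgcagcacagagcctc
Lamp1, chr8:13159093-13159160, plus strand: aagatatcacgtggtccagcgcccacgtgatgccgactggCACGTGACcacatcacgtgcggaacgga
Lgmn, chr12:102439096-102439183, minus strand: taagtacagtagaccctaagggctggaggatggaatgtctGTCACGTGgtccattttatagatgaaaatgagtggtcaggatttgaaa
Mcoln1, chr8:3500406-3500493, plus strand: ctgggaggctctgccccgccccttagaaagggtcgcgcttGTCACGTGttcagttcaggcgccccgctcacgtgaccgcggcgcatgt

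For every antibody but H3K27Ac, MACS2 scored each peak by its p- or q-value on a −log10 scale, as inferred from the values. H3K27Ac regions carry a signal of normalized tags instead. The value of a gene is the sum over its peaks in a sample, called its summed score (summed signal for H3K27Ac). Differences were fitted on a log2 scale after each sample had been centred on the median of those genes that no sample lacked, and a gene was called at a limma p of at most 0.1 adjusted over all genes tested. A sum of −log10 values rises with depth and with the number of peaks, so a log2 difference here is not a fold change of binding. Where no peak was listed in a group no difference is given, because the fitted one depends on the low value that stood in for a missing peak. The figures and the closing sections do show such values.

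Some libraries stood apart. The 4 RNAPII-pS2 lists of the IL-4 set carry, in the names of their peaks, the treatment opposite to their labels, and the IL-4-induced genes Cish, Klf4, Retnla, and Socs1 all fell there by label, so those libraries are named by label only. The untreated p300 replicate 1 had 44787 peaks against 66710 to 69360 in the other 3 p300 samples. The label of the HDAC3 antibody gives the catalogue number of the H3K27Ac antibody. The p65 lists ran from 9556 peaks in ctrl/ctrl to 38955 in IL-4 PT/LPS, and RNAPII-pS5 in the LPS set from 14476 in ctrl/LPS to 22149 in IL-4 PT/ctrl, with 20803 and 19279 in ctrl/ctrl. Peak numbers stand in for depth, which is unknown. Of 8 macrophage genes, 6 had a peak in both control samples for every antibody but H3K27Ac (5 of 8). Cd3e and Cd3g of T cells, Ly6g of neutrophils, Hbb-bs of erythroid cells, and Col1a1 of fibroblasts had none in any control sample. Cd8a, also of T cells, had an RNAPII-pS2 peak in both libraries labelled untreated (12.5 and 12.7), and at least 1 of 2 dendritic cell genes had a peak in both control samples for every antibody. For H3K27Ac the highest regions summed to 124 to 129.6 over the dendritic cell list, 41.1 to 60.9 over the neutrophil list, and 51.2 to 59.2 over the erythroid list, against 1677 to 1741 over the macrophage list.

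In control cells most of the lysosomal genes had peaks. All 33 had RNAPII-pS5 peaks in both untreated samples of the IL-4 set. Likewise 32 had HDAC1 peaks, 30 had p300 peaks, 29 had PU.1 peaks, 26 had H3K27Ac regions, and 20 had HDAC3 peaks. p65 was listed at 20 genes in both ctrl/ctrl samples. Of all 20352 gene names, 13484 and 12879 had RNAPII-pS5 peaks in the same 2 samples. The numbers were 12309 and 11800 for HDAC1, 13409 and 15359 for p300, and 15387 and 14690 for PU.1. They were 12753 and 12823 for H3K27Ac, 5742 and 4609 for HDAC3, and 5776 and 5657 for p65. For PU.1, 26 of the 29 genes had a highest peak above the median of all genes with a peak in both samples. For p300 27 of the 30 did. H3K27Ac showed the same for 23 of the 26 genes and HDAC3 for 7 of the 20. These are descriptions of the list and were not tested.

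The genes with the highest peaks, ranked by the mean of the 2 control samples, differed between antibodies. The initiating polymerase was highest at Neu1, the sialidase, with highest peak scores of 163 and 123.2 in untreated cells, followed by Ctsl (121.7 and 95.6) and Man2b1, the lysosomal α-mannosidase (100 and 71.4). In the ctrl/ctrl samples of the LPS set it was highest at Ctsl (48.1 and 41.9), Grn (44.7 and 42.4), and Ctsc (45.8 and 38.9). The ranges of these 3 overlapped. PU.1 was highest at Lgmn, or legumain, an asparaginyl endopeptidase (141.7 and 107.8), Ctss (161.2 and 82.7), and Ctsb (138 and 97.4), and these again overlapped. p300 was highest at Ctsk (112.7 and 234.4), Ctsh (114.1 and 229.3), and Lgmn (119 and 211.4), with the lower value of each in the untreated replicate 1. Within each sample another gene was first, Ctsb in replicate 1 (129.4) and Psap in replicate 2 (235.4), so this order rests on the mean of unlike libraries.

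HDAC1 and HDAC2 shared their first 2 genes, Ctsh, an aminopeptidase among the cathepsins (35.9 and 21.5 for HDAC1, 30.3 and 27.3 for HDAC2), and Man2b1 (25.9 and 16.2 for HDAC1, 23.6 and 22.6 for HDAC2). The third was Tfeb for HDAC1 (19.8 and 16.2) and Psap, the precursor of the saposins that help degrade sphingolipids, for HDAC2 (24.3 and 19.1). HDAC3 was highest at Ctss (36.7 and 32.1), Ctsc (40.2 and 18.8), and Ctsh (28.2 and 15.4). The H3K27Ac signal was highest at Npc1, a cholesterol transporter of the lysosomal membrane (686.1 and 672.3), Ctsz (675.9 and 657), and Ctsa (685.2 and 603.3). p65 was highest at Ctsz (83.4 and 58.9), Ctsb (46.2 and 47.1), and Ctsh (34.7 and 35.1). RNAPII-pS2 was highest at Ctsc (58.5 and 50.8), Grn (40.5 and 40.3), and Ctsh (41.7 and 35.6) in ctrl/ctrl. In the libraries labelled untreated of the IL-4 set it was highest at Cd68 (72.6 and 74.7), Grn (55.2 and 68.9), and Ctsb (38.2 and 48.3), with Ctsc at 12.5 and 19.1.

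**Figure D1:**
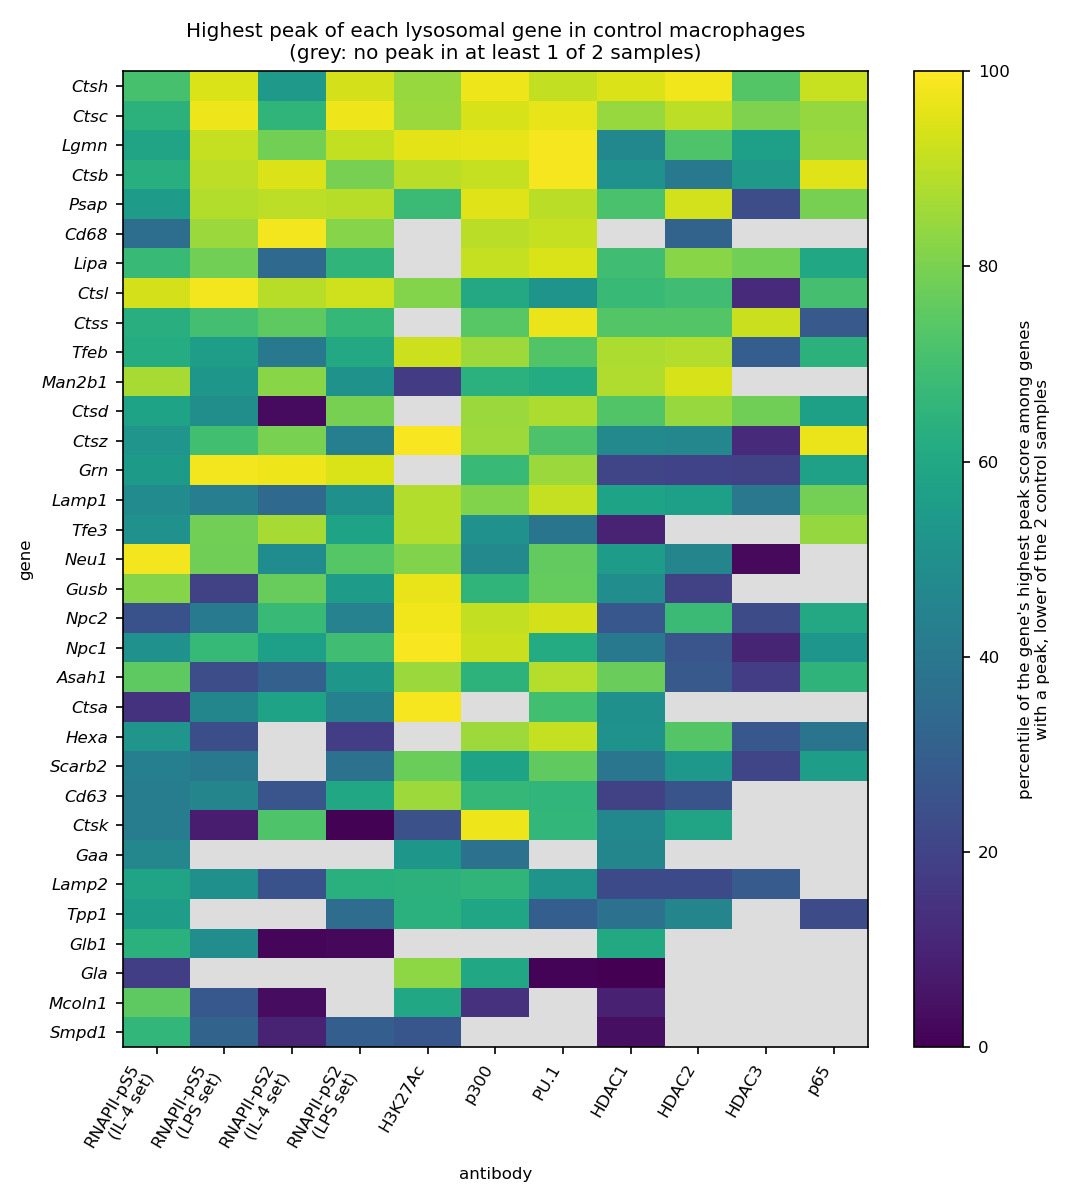
Percentile of each gene's highest peak among all genes with a peak in the same sample, for the 33 lysosomal genes (rows) and 11 antibody sets (columns), taking the lower of the 2 control samples. Colour runs from 0 (dark) to 100 (yellow) and grey marks genes with no peak in at least 1 of the 2 samples. Asah1, Ctsb, Ctsc, Ctsh, Ctsl, Ctsz, Lamp1, Lgmn, Npc1, Npc2, Psap, and Tfeb have a value in every column, while p65 and HDAC3 hold many grey cells.

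After 1 hr of LPS, RNAPII-pS5 fell at 11 of the 31 lysosomal genes tested and rose at none. Among all 12477 genes tested 35.1% were called, 23.6% lower and 11.5% higher, and the median log2 difference was -0.91 over the lysosomal genes and -0.34 over all genes. The genes that fell were the proteases Ctsa, Ctsd, Ctsh, and Lgmn, the hydrolases Man2b1, Neu1, and Asah1, Psap, and the membrane proteins Scarb2, Mcoln1, and Npc1. Of the 11, 7 had a peak in all 4 samples compared. Man2b1, Ctsa, and Mcoln1 had none in ctrl/LPS, and Asah1 had none in 1 of the 2 samples. The count was 5 and 6 without ctrl/ctrl replicates 1 and 2 and 6 without ctrl/LPS replicate 2.

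Man2b1 had summed scores of 26.2 and 20.7 in ctrl/ctrl and no peak in either ctrl/LPS sample (limma, adjusted p = 0.00168). Its peak at the start (chr8:85083203-85083604) and a peak at a transcription end site 15534 bp downstream were both absent. Ctsh went from 97.8 and 75.5 to 11.3 and 12.8, a log2 difference of -2.51 ± 0.36 (SE, limma adjusted p = 0.00515). At Ctsh, 3 intronic peaks of neighbouring genes, -65221 to -32602 bp from its start, were listed in both ctrl/ctrl samples and in neither ctrl/LPS sample. Ctsd, an aspartic protease, went from 37.3 and 34.2 to 5.25 and 8.5 (-2.09 ± 0.31, adjusted p = 0.00587).

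Psap went from 112.4 and 118.6 to 27.6 and 21.8 (-1.91 ± 0.29, limma adjusted p = 0.00616). The 2 groups did not overlap at Ctsh, Ctsd, or Psap. Scarb2, also known as LIMP2, the receptor that carries glucocerebrosidase to the lysosome, went from 16.6 and 30.2 to 4.55 and 4.75 (-1.94 ± 0.38, adjusted p = 0.0143). Its fall lay in intergenic peaks. With intergenic peaks left out the difference was 0.31, and for the highest peak within 2000 bp of the start it was 1.16. A Scarb2 promoter peak (chr5:92505231-92506011) was listed at 4.55 in 1 ctrl/LPS sample and in neither ctrl/ctrl sample. Ctsa, a carboxypeptidase that protects the β-galactosidase Glb1 and Neu1, also turned near its start, to 0.33.

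The elongating form showed a similar picture at fewer genes. RNAPII-pS2 fell at 8 of 32 lysosomal genes and rose at 1, against 36.4% of all 13663 genes tested, 20.8% lower and 15.6% higher. The median log2 difference was -0.5 over the lysosomal genes and -0.22 over all genes. Man2b1, Scarb2, Psap, Ctsd, and Lgmn fell for both polymerase forms, or 5 of the 11 called for RNAPII-pS5 and of the 9 called for RNAPII-pS2. Lgmn was the least stable of these. Its RNAPII-pS5 call was kept in 8 of 16 alternatives, with differences from -1.23 to -0.0493. Its RNAPII-pS2 call was kept in 4 of 16, with differences from -1.16 to -0.144. Each antibody was compared with its own control samples. The RNAPII-pS2 count was 4 and 5 without ctrl/ctrl replicates 1 and 2 and 4 without ctrl/LPS replicate 1.

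Man2b1 had RNAPII-pS2 scores of 25.7 and 31.7 in ctrl/ctrl and no peak in ctrl/LPS (limma, adjusted p = 0.000584). Scarb2 went from 39.3 and 31.1 to 3.31 and 6.49 (-3.14 ± 0.50, adjusted p = 0.00767). Psap went from 109.2 and 137.3 to 79.4 and 77.7, a smaller difference than for RNAPII-pS5 (-0.86 ± 0.25, adjusted p = 0.0485). The gap between the 2 forms was not tested. Glb1 (8.96 and 3.25 in ctrl/ctrl) and Tpp1, a tripeptidyl peptidase (18.8 and 8.24), had no peak in ctrl/LPS, with adjusted p of 0.0188 and 0.0218. Cd63, a tetraspanin, went from 16.6 and 17.4 to 9.36 and 10.4 (-1.01 ± 0.32, limma adjusted p = 0.0626).

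The gene that rose was Ctsk, the collagen-degrading cathepsin of osteoclasts, from 5.42 and 16.2 to 32.8 and 32.1 (1.57 ± 0.53, limma adjusted p = 0.0766). It kept this call in 8 of 16 alternatives, with differences from 0.274 to 3.68. Most of the rise lay in an intergenic peak 12624 bp downstream of its start, listed at 7.57 in 1 ctrl/ctrl sample and at 21.4 and 25.3 in ctrl/LPS. Ctsk did not rise for RNAPII-pS5, with 11.6 and 7.83 in ctrl/ctrl and 9.47 and 5.87 in ctrl/LPS. Ctsc, the dipeptidyl peptidase that activates serine proteases, had RNAPII-pS2 scores of 319.2 and 273 in ctrl/ctrl and 413.1 and 421.3 in ctrl/LPS and was not called.

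**Figure D2:**
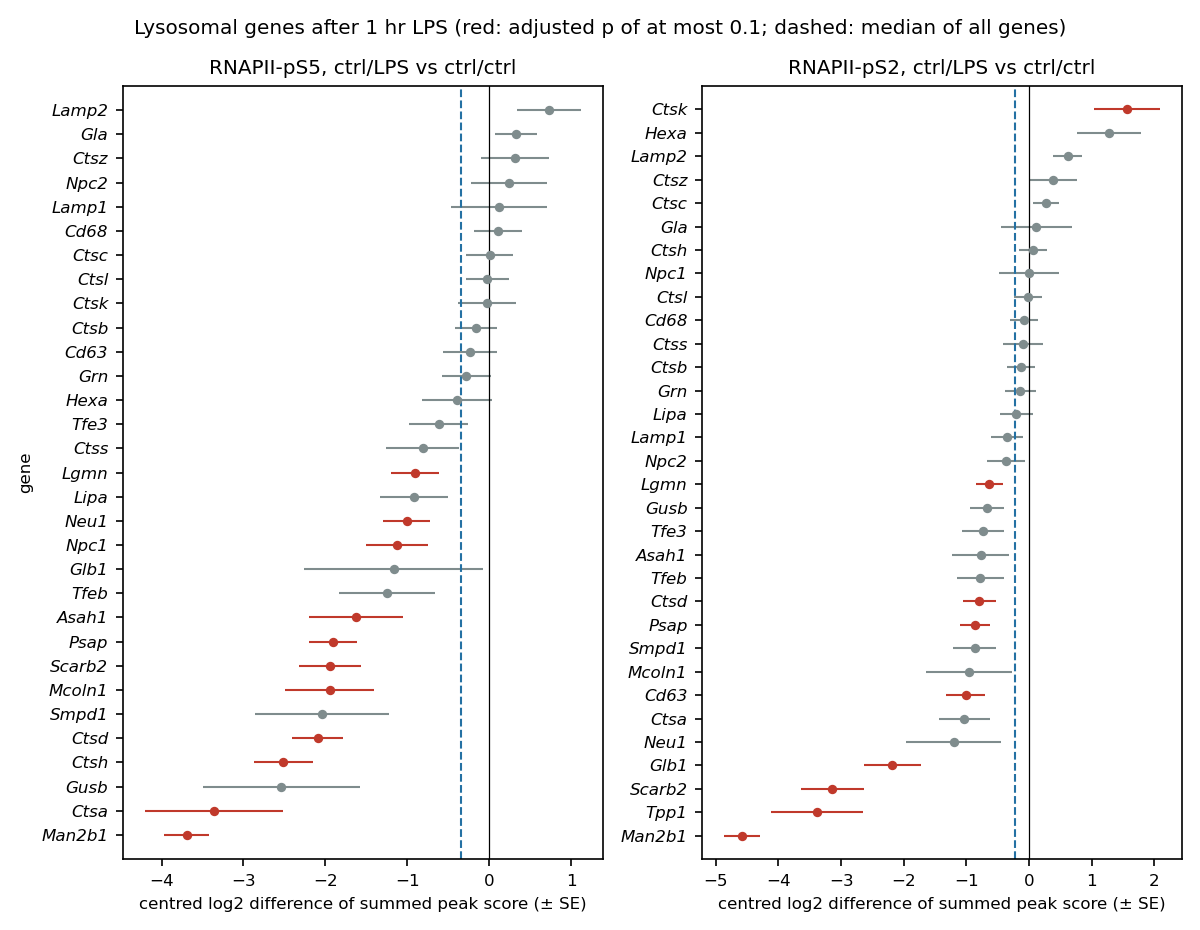
Centred log2 difference of the summed peak score, ctrl/LPS minus ctrl/ctrl, with its SE (horizontal bars, limma, 2 samples per group), for RNAPII-pS5 (left) and RNAPII-pS2 (right) at each lysosomal gene tested, called genes in red, all-gene median dashed. All 11 called genes on the left lie below 0, and on the right 8 lie below 0 and Ctsk above, with values for genes without a peak in 1 group (Man2b1, Ctsa) set by the low value given to missing peaks.

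The 74 other lysosomal genes gave counts of the same kind. With LPS, RNAPII-pS5 fell at 22 of 68 and rose at 2, and RNAPII-pS2 fell at 21 and rose at 5, with medians of -0.54 and -0.6. Examples for RNAPII-pS5 are Dnase2a, the acid DNase (-1.93 ± 0.28, limma adjusted p = 0.00521), and Cln3, a protein of the lysosomal membrane (-2.00 ± 0.42, adjusted p = 0.0183). Cln3 fell for RNAPII-pS2 too (-3.49 ± 0.33, adjusted p = 0.00143). Slc11a1, a metal transporter of phagosomes, rose for RNAPII-pS2 (1.02 ± 0.23, adjusted p = 0.0252).

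After 24 hr of IL-4 without LPS, RNAPII-pS5 rose at 2 lysosomal genes and fell at 2, of 31 tested, against 13.3% of all genes. RNAPII-pS2 rose at 4 and fell at 3, of 32 tested, against 21.8%. Ctsk and Gla rose and Scarb2 fell for both forms. Median log2 differences were -0.06 and -0.05 over the lysosomal genes, near the -0.03 and -0.02 over all genes. The RNAPII-pS5 count was 2 without ctrl/ctrl replicate 2 or IL-4 PT/ctrl replicate 2. The RNAPII-pS2 count was 3 without either ctrl/ctrl sample, and 2 and 4 without IL-4 PT/ctrl replicates 1 and 2.

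Ctsk rose from 11.6 and 7.83 to 37.5 and 40.7 for RNAPII-pS5 (1.96 ± 0.35, limma adjusted p = 0.0237) and from 5.42 and 16.2 to 54.8 and 52.1 for RNAPII-pS2 (2.58 ± 0.53, adjusted p = 0.0276). Its promoter peak (chr3:95497490-95499763, mm10) went from 5.19 and 3.46 to 13.6 and 11.4 for RNAPII-pS5. Scarb2 went the other way, from 16.6 and 30.2 to 4.28 and 5.27 for RNAPII-pS5 (-2.31 ± 0.38, adjusted p = 0.0174). It had no RNAPII-pS2 peak left after IL-4, from 39.3 and 31.1 (adjusted p = 0.00367). For RNAPII-pS5 the Scarb2 difference near the start was 0.01, so its fall again rested on peaks away from the start.

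Gla, the α-galactosidase, was listed with RNAPII-pS5 scores of 6.44 and 6.49 in IL-4 PT/ctrl and with no peak in ctrl/ctrl (limma, adjusted p = 0.00648). Its RNAPII-pS2 scores were 3.54 and 6.97, again with no peak in ctrl/ctrl (adjusted p = 0.0792). The median score of a peak was 7.02 and 7.08 in these RNAPII-pS5 samples and 7.55 and 7.93 in the RNAPII-pS2 ones. Ctsc fell for RNAPII-pS5, from 188.5 and 165.1 to 95.9 and 91.6 (-0.99 ± 0.29, adjusted p = 0.0984). Its RNAPII-pS2 values of 319.2 and 273 in ctrl/ctrl and 239 and 272.6 in IL-4 PT/ctrl did not differ beyond the test.

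The remaining calls were for RNAPII-pS2. Cd68, or macrosialin, a membrane protein of macrophage lysosomes, rose from 23.8 and 21.8 to 39.5 and 47.5 (0.99 ± 0.22, limma adjusted p = 0.0342), all of it in 1 peak over the promoter (chr11:69664989-69666813). Ctsl rose from 51.9 and 48.6 to 77.8 and 89.8 (0.80 ± 0.23, adjusted p = 0.0704), but without intergenic peaks its difference was -0.15. Glb1 had no peak after IL-4 (adjusted p = 0.0451), and Asah1, the acid ceramidase, fell from 25.5 in both samples to 4.79 and 14 (-1.57 ± 0.45, adjusted p = 0.0737).

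In cells that had LPS, pretreatment with IL-4 raised RNAPII-pS5 at 2 lysosomal genes and lowered it at 1, against 17.2% of all genes, and raised RNAPII-pS2 at 2 and lowered it at 1, against 14%. Ctsk rose for RNAPII-pS5 from 9.47 and 5.87 to 37.2 and 38.7 (2.06 ± 0.35, limma adjusted p = 0.0195), with its promoter peak absent in ctrl/LPS and at 16.5 and 15.4 in IL-4 PT/LPS. Ctsd rose from 5.25 and 8.5 to 15.4 and 17.5 (1.01 ± 0.31, adjusted p = 0.0988), which left it below the 37.3 and 34.2 of ctrl/ctrl. Ctsc fell from 116.3 and 171.2 to 89.8 and 91.4 (-0.92 ± 0.29, adjusted p = 0.0991). With 1 sample left out, Ctsk kept its call in 8 of 8 fits, Ctsd in 1 of 8, and Ctsc in 0 of 8.

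For RNAPII-pS2, Cd68 rose again, from 27 and 23.6 to 43.4 and 50.4 (0.85 ± 0.22, limma adjusted p = 0.0749). Glb1 had no peak in ctrl/LPS and scores of 10.7 and 8.83 in IL-4 PT/LPS (adjusted p = 0.0196). Smpd1, the acid sphingomyelinase, went from 4.73 and 7.55 to no peak (adjusted p = 0.0183). Man2b1 had no RNAPII peak of either form in any of the 4 samples per antibody set that had LPS.

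The effect of IL-4 with LPS differed from that without LPS at 2 lysosomal genes for RNAPII-pS5 (11.8% of all genes) and at 2 for RNAPII-pS2 (11.3%). Scarb2 was called for both (limma interaction, adjusted p = 0.0523 and 0.0139). Either agent alone brought its RNAPII-pS5 score from 16.6 and 30.2 to between 4.28 and 5.27, and both together left it at 6.47 and 6.22. The others were Gla for RNAPII-pS5, which was listed in IL-4 PT/ctrl only (adjusted p = 0.0249), and Glb1 for RNAPII-pS2, whose 2 pairs of listed samples were ctrl/ctrl and IL-4 PT/LPS (adjusted p = 0.0155). All treated RNAPII-pS5 scores of Scarb2 lay below the median score of a peak in those samples, 7.02 to 7.205. The part of the listing limit was not tested. Over 16 alternatives the Scarb2 RNAPII-pS5 interaction ran from 0.748 to 2.97 and kept its call in 7. For RNAPII-pS2 the Scarb2 interaction kept its call in 14 of 14, but Scarb2 had no RNAPII-pS2 peak in IL-4 PT/ctrl. The low value given to missing peaks therefore enters all 14. The alternative limited to genes with a peak in every sample could not include it.

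**Figure D3:**
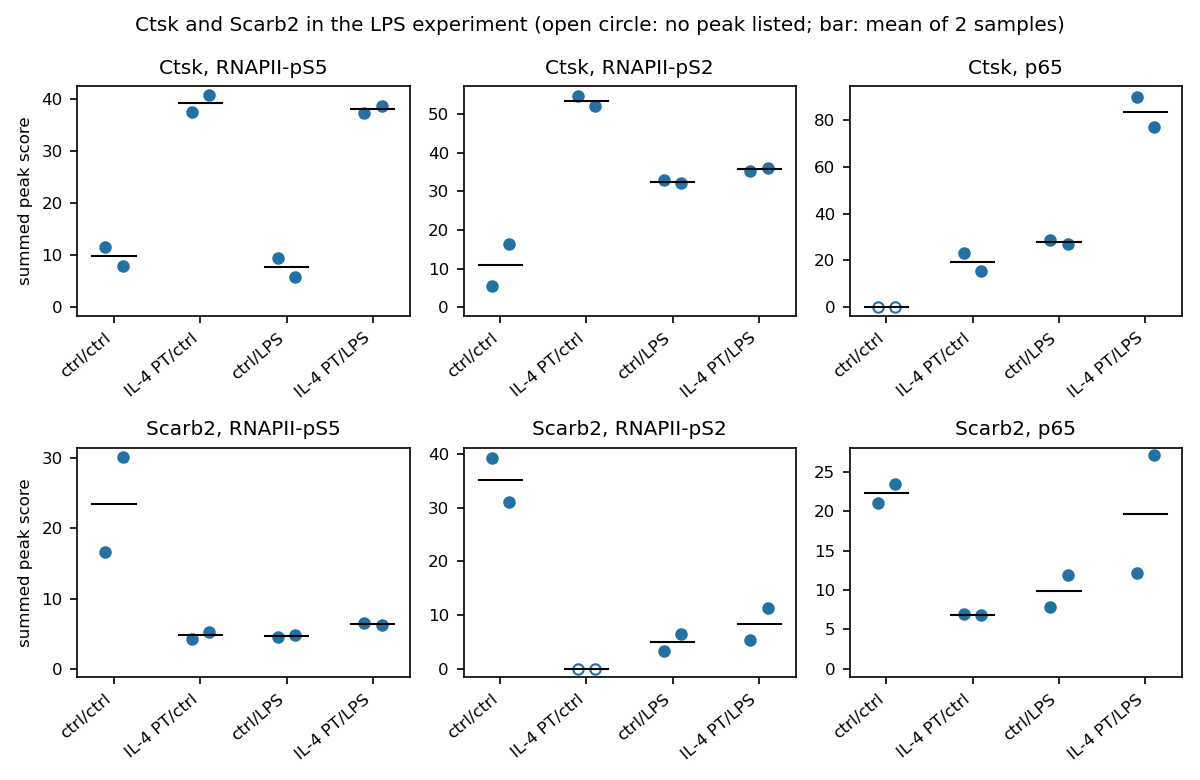
Summed peak score of Ctsk (top) and Scarb2 (bottom) in the 4 groups of the LPS set for RNAPII-pS5, RNAPII-pS2, and p65 (each vertical axis starts near 0, points are the 2 samples, bars their mean, open circles at 0 no listed peak). Ctsk is above ctrl/ctrl in both IL-4 groups in all 3 panels, and Scarb2 is highest in ctrl/ctrl for both polymerase forms.

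p65 spread widely with LPS. The median log2 score of the genes with a p65 peak in all 8 samples was 1.64 higher in ctrl/LPS than in ctrl/ctrl, and centring removes that shift, so a gene that fell in the centred fit may still have gained p65. In that fit 44.7% of 12312 genes were called, 24.1% higher and 20.6% lower. Of 29 lysosomal genes tested, 3 rose and 11 fell, with a median of -0.71 against -0.05 over all genes. Without centring 16 rose and 2 fell, against 55.3% and 1.42% of all genes, with medians of 0.93 and 1.6. The 2 scales differ by the same 1.64 for every gene, so they differ in the sign of the lysosomal median and not in its distance from the median of all genes.

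Grn, the gene of progranulin, was the gene that rose with peaks in all 4 samples compared. Its summed score rose from 9.55 and 11.4 to 88 and 86.6 (1.43 ± 0.25, limma adjusted p = 0.00912), nearly all of it at an intronic peak 1913 bp from the start (chr11:102431923-102432634) that went from 9.55 and 11.4 to 78.5 and 71.8. Ctsk had no p65 peak in ctrl/ctrl and scores of 28.5 and 27 in ctrl/LPS (adjusted p = 0.00201). Lamp2, an abundant glycoprotein of the lysosomal membrane, had none in ctrl/ctrl and 20 and 34.1 in ctrl/LPS (adjusted p = 0.016). These 3 rose on both scales.

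Scarb2 and Tpp1 fell on both scales. Scarb2 went from 21.1 and 23.5 to 7.84 and 11.9 (-2.84 ± 0.41, limma adjusted p = 0.00466), with an intronic peak 5918 bp from its start at 11.6 and 9.72 in ctrl/ctrl and at 5.25 in only 1 of the ctrl/LPS samples. Tpp1 went from 6.39 and 5.3 to no peak (adjusted p = 0.0148). The others called lower in the centred fit were Asah1, Ctsh, Ctsz, Lamp1, Lipa, Psap, Tfe3, Tfeb, and Gla. Asah1 stayed below 0 without centring but was not called there. Psap, with 37.6 and 34.3 in ctrl/ctrl and 41.1 and 41.5 in ctrl/LPS, illustrates most of the rest. Its centred difference was -1.44 ± 0.25 (limma adjusted p = 0.00877) and its uncentred one 0.20. Ctsh, Ctsz, Lamp1, Lipa, Tfe3, and Tfeb also turned to positive differences without centring. Gla had no p65 peak in either group, so its call rests on the centring alone.

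**Figure D4:**
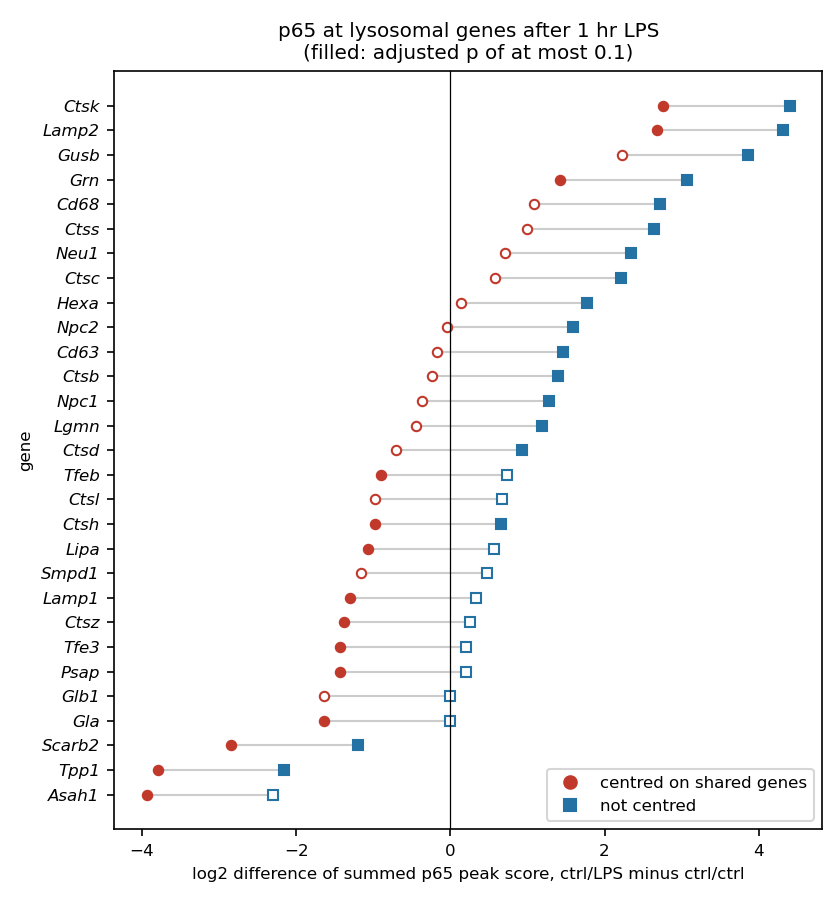
Log2 difference of the summed p65 peak score, ctrl/LPS minus ctrl/ctrl, for each lysosomal gene tested, with centring (red circles) and without (blue squares), filled where the limma adjusted p was at most 0.1, from 2 samples per group. Every square lies 1.64 to the right of its circle, which moves Psap, Tfeb, and most other genes across 0, while Scarb2, Tpp1, and Asah1 stay below 0 on both scales, and values of genes without a peak in 1 group are set by the low value given to missing peaks.

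Counted by region, 42 of 124 p65 regions at lysosomal genes (33.9%) were listed in both ctrl/LPS samples and in neither ctrl/ctrl sample, at 21 genes, against 36.1% of all 33759 regions. A further 28 were listed in all 4 samples. With the upper 50% of peaks the share was 25.4% (16 of 63) at lysosomal genes and 39.8% of all regions. Without ctrl/LPS replicates 1 and 2 it was 47.7% and 48.2% at lysosomal genes and 57.6% and 57.1% of all regions. A 10-letter κB consensus, searched on both strands in the central 200 bp, was found in 7 of the 42 (16.7%) and in 1367 of all 12186 such regions (11.2%), and in 4 of the 28 (14.3%) against 1435 of 5627 (25.5%). These counts are small.

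The 4 sequences below are stretches of regions of this class, listed in both ctrl/LPS samples and in no ctrl/ctrl sample. Each held such a match outside a promoter, shown in capitals. Regions of Npc1 were not read for these sequences, so the set may not be complete. They show the letters of the match at 1 of 8 such regions of Ctsc, 1 of 3 of Lamp2, 1 of 2 of Npc2, and the 1 such region of Grn, whose larger gain lay at the intronic peak given above. The regions lie -62881, -4908, -28900, and 8204 bp from the start of the gene, the first 3 intergenic and the last in an intron, and the Lamp2 match is on the minus strand. The last 84 bases of the Lamp2 stretch recur, letter for letter, in another p65 region of Lamp2, -34301 bp from the start, so reads within them cannot be told apart. The sequence is that of GRCm38, the assembly mm10 that the lists use.
Ctsc, chr7:88215198-88215311, plus strand: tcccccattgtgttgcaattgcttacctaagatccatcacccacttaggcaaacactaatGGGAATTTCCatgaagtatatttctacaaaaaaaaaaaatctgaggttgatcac
Grn, chr11:102425326-102425455, plus strand: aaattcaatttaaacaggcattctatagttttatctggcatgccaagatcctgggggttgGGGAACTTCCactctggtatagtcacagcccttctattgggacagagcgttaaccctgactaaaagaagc
Lamp2, chrX:38485255-38485381, plus strand: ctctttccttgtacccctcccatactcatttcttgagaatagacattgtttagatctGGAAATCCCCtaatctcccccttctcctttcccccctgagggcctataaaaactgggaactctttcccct
Npc2, chr12:84764808-84764924, plus strand: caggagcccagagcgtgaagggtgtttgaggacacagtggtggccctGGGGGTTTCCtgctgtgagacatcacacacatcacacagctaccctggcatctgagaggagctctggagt

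At the Grn region p65 had no peak in ctrl/ctrl, 5.34 and 4.37 in IL-4 PT/ctrl, 9.47 and 8.44 in ctrl/LPS, and 27.8 and 26 in IL-4 PT/LPS. At the Npc2 region, in the gene of a sterol-binding protein, it had none in ctrl/ctrl or IL-4 PT/ctrl, 36.3 and 20.3 in ctrl/LPS, and 40.3 and 57.8 in IL-4 PT/LPS. The Lamp2 region was at 5.25 and 10.6 in ctrl/LPS and 7.54 and 11.9 in IL-4 PT/LPS, with none in the other groups. All 3 were thus listed in every sample with LPS. In contrast the Ctsz promoter region was listed in all 8 samples, at 83.4 and 58.9 in ctrl/ctrl and 66 and 73.2 in ctrl/LPS.

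IL-4 alone raised p65 at 2 lysosomal genes and lowered it at none, against 8.72% of all genes. Ctsk had no peak in ctrl/ctrl and scores of 23.1 and 15.5 in IL-4 PT/ctrl (limma, adjusted p = 0.00311), in 3 regions from -1467 to 12633 bp of its start that RNAPII-pS5 peaks of Ctsk overlapped. Cd63 had a single peak of 3.59 in 1 ctrl/ctrl sample and 13 and 12.9 in IL-4 PT/ctrl (adjusted p = 0.0296). Both calls rest on missing peaks. Grn had 19.8 and 14.2 in IL-4 PT/ctrl and was not called (adjusted p = 0.157).

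In cells that had LPS, IL-4 pretreatment raised p65 at 3 lysosomal genes, against 17.8% of all genes, and at 7 without centring, against 27.3%. Ctsk rose from 28.5 and 27 to 90 and 77 (1.08 ± 0.27, limma adjusted p = 0.058), and its intronic region 5588 bp from the start went from 5.7 in 1 of 2 samples to 34 and 31.2. Psap rose from 41.1 and 41.5 to 105.2 and 118.8 (0.93 ± 0.25, adjusted p = 0.0721), in several regions upstream of the gene. Gla had no peak in ctrl/LPS and 4.33 and 6.24 in IL-4 PT/LPS (adjusted p = 0.0142). With the peaks of IL-4 PT/LPS more numerous than those of ctrl/LPS (36738 and 38955 against 26305 and 26820), the part of the number of peaks in these results was not tested.

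The p65 effect of IL-4 with LPS differed from that without at Ctsk (limma interaction, adjusted p = 0.0142) and Gla (adjusted p = 0.0808), against 12.5% of all genes. At Ctsk the missing peaks of ctrl/ctrl enter this value. Ctsk kept this call in 6 of 8 fits that left out 1 sample and lost it without either IL-4 PT/LPS sample. Gla kept it in 0 of the 6 fits in which it could be tested, since leaving out either IL-4 PT/LPS sample leaves it with 1 peak. The effect of IL-4 on p65 under LPS was called at 0 lysosomal genes without either IL-4 PT/LPS sample and at 1 without ctrl/LPS replicate 2.

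For 1 hr of IL-4, H3K27Ac was the antibody with calls at many lysosomal genes. The signal rose at 5 of 27 genes and fell at 8, against 44.4% of all 13035 genes, 20% higher and 24.4% lower. All 13 called genes had regions in all 4 samples. Those that rose were Psap, Ctsb, Ctsc, Lamp1, and Ctsz. Those that fell were the proteases Lgmn, Ctsh, and Ctsl, the hydrolases Man2b1 and Gla, Npc2, Scarb2, and Tfeb. The median difference was -0.1, against -0.01 over all genes. The count was 8 without either untreated sample.

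Ctsb, a cysteine protease, rose from 385.2 and 361.8 to 1064 and 1037 (1.5 ± 0.06, limma adjusted p = 0.00191), and Psap from 214.3 and 184.6 to 754.9 and 707.2 (1.88 ± 0.10, adjusted p = 0.00341). Each rise came from 1 region that was listed in the IL-4 samples only. At Ctsb it lay over the start (chr14:63122591-63123596) at 716.5 and 721.4, and at Psap -16839 bp from the start (chr10:60260289-60261324) at 560.2 and 527. The regions listed in all 4 samples did not rise: Ctsb had 385.2 and 361.8 and then 347 and 315.9, and Psap had 214.3 and 184.6 and then 194.7 and 180.2. An unlisted region carries no value in these lists. Of 3201 regions in the highest 10% of the signal, at 302.1 or more, 163 (5.09%) were listed in 1 group only, and 2865 in all 4 samples.

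The fall of Lgmn had the same form. Its summed signal went from 1351 and 1329 to 873.8 and 857.1 (-0.62 ± 0.05, limma adjusted p = 0.00704), and a region -5765 bp from its start (chr12:102444962-102446043) was listed at 435.3 and 441.4 in untreated cells only. The region over its start was at 511.1 and 495.8 and then at 500.6 and 476.3. Whether signal was present below the listing limit at those 3 regions was not tested.

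Ctsh and Tfeb fell in most of their regions. Ctsh went from 850.9 and 801.7 to 550.4 and 523.5 (-0.62 ± 0.06, limma adjusted p = 0.00972), with 8 of its 9 regions lower and the region over the start at 321.4 and 299.3 and then 203.3 and 187.8. Tfeb went from 879.1 and 791.5 to 554.6 and 547.8 (-0.59 ± 0.07, adjusted p = 0.0135), with the start region (chr17:47737112-47739075) at 327.8 and 283 and then 192.4 and 200.3, and an intronic region 16478 bp into the gene at 448.5 and 405.2 and then 322.8 and 312.8. Of its other regions, 1 was lower, 1 was listed in untreated cells only (58.9 and 64), and 1 was higher with IL-4, at 16.3 and 13.4 and then 23.8 and 19.1. Ctsh and Tfeb kept their calls under every alternative that gave a value. Ctsb and Psap did so too, but no alternative that gave a value left out their regions listed in the IL-4 samples only. Their kept calls therefore say nothing about the regions listed in all 4 samples.

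The other calls were smaller, with log2 differences from 0.29 to 0.45 for the genes that rose and from -0.44 to -0.28 for those that fell. Ctsc rose from 1363 and 1416 to 1942 and 1834, more in its distal regions than at its promoter, which went from 314 and 332.1 to 374.8 and 370.4. Lamp1 had 1 region, at 362.8 and 341.8 and then 448.7 and 425.3. Man2b1 had 1 region of low signal, at 35.3 and 34.1 and then 23.8 and 27.4. Npc1, with the highest signal in untreated cells, had 783.4 and 782.3 and then 824.5 and 885.9 and was not called. Gene names in these lists can pass from 1 gene to its neighbour between samples, as for Ctsa, which was listed in 3 of 4 samples, and Cd68, Ctsd, Ctss, Grn, Hexa, and Lipa had no H3K27Ac region by name.

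**Figure D5:**
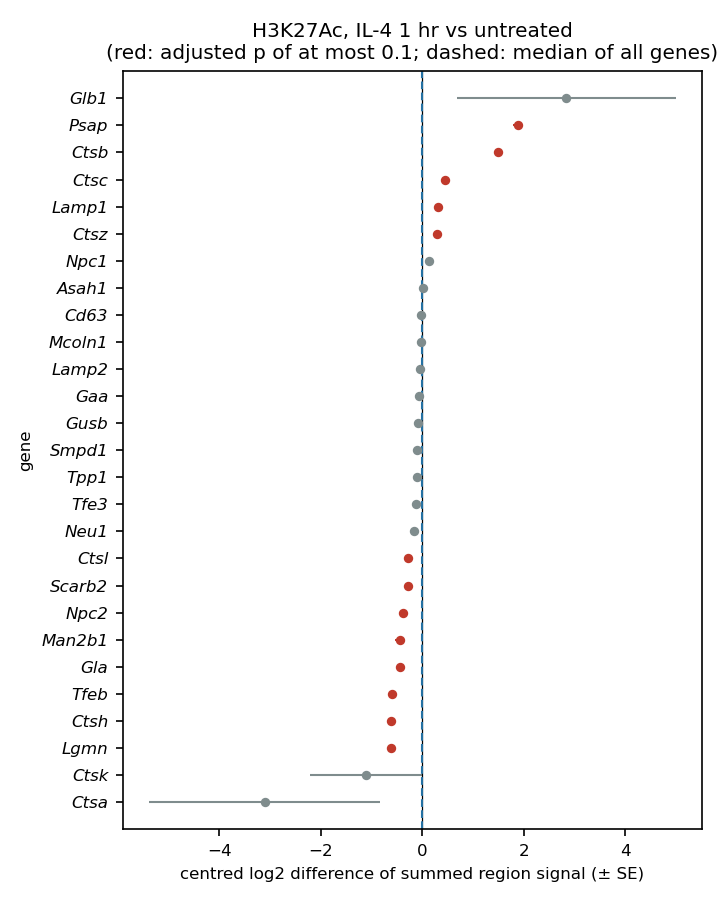
Centred log2 difference of the summed H3K27Ac signal, IL-4 1 hr minus untreated, with its SE (horizontal bars, limma, 2 samples per group), for each of 27 lysosomal genes, called genes in red and the all-gene median dashed close to 0. Psap and Ctsb stand to the right at 1.88 and 1.5, the genes that fell lie between -0.62 and -0.28, and the wide bars of Glb1, Ctsk, and Ctsa mark genes whose listing changed between replicates.

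Among the 66 other lysosomal genes tested for H3K27Ac, 12 rose and 20 fell. Tfec, a relative of TFEB in macrophages, rose (0.65 ± 0.05, limma adjusted p = 0.00657), and Tcirg1, a subunit of the proton pump, fell (-0.93 ± 0.05, adjusted p = 0.00364). The IL-4-induced genes Arg1, Cish, Klf4, Retnla, and Socs1 rose in the same samples, and Ccl17 fell.

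Few polymerase differences were called with 1 hr of IL-4, at 2 samples per group. RNAPII-pS5 was called by limma at none of 33 lysosomal genes (2.51% of all genes), and 4 passed an unadjusted p of 0.05 (14.8% of all genes): Ctsc at 0.61 ± 0.15 and Ctsh, Ctsk, and Gla at -0.97 ± 0.18, -0.65 ± 0.16, and -1.40 ± 0.42. Neu1, with the highest peak, had 214.2 and 161 and then 191.5 and 164.3. Between the libraries labelled untreated and IL-4, RNAPII-pS2 fell at 2 of 30 genes (3.78% of all genes). Ctsc went from 68.4 and 96 in the libraries labelled untreated to 10.8 and 19 in those labelled IL-4 (-2.42 ± 0.35, limma adjusted p = 0.0733), and Cd63 from 14.9 and 12.6 to no peak (adjusted p = 0.0691). Ctsc kept its call in 0 of 4 fits that left out 1 library and Cd63 in 0 of the 2 in which it could be tested, and the direction holds only as far as the labels do. Cd68 had 72.6 and 74.7 by label in untreated and 47.7 and 59.1 in IL-4, and Grn 55.2 and 68.9 and then 111.2 and 138.5, and neither was called.

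At the cofactors and PU.1 no lysosomal gene was called by limma after 1 hr of IL-4. For p300 this was 0 of 32, against 7.05% of all genes, with 3 at an unadjusted p of at most 0.05 (25.8% of all genes), which were Ctsd, Ctsl, and Gla, at -0.77, -0.52, and -0.82. The count was 9 without the untreated p300 replicate 2 and 0 without replicate 1, the library with fewer peaks. Ctsh, for example, had p300 scores of 356.1 in that library, 988.5 in the other untreated sample, and 889.6 and 918.3 after IL-4.

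PU.1 gave 0 calls of 29 (0% of all genes) and 0 at the unadjusted p (10.2%). Lgmn had PU.1 scores of 313.5 and 261.1 and then 383.1 and 410.5. HDAC1 gave 0 of 33 (0% of all genes) and 6 at the unadjusted p (8.86%), 4 higher and 2 lower. HDAC2 gave 0 of 28 (0%) and 0 at the unadjusted p (9.47%). HDAC3 gave 0 of 25 (0%) and 3 at the unadjusted p (15.4%). Ctsh, the highest for HDAC1, had 104.5 and 94.2 and then 53.4 and 69.1, a centred difference of -0.25 ± 0.38, where the median of the shared genes differed by -0.46. Ctss, the highest for HDAC3, had 58.2 and 39.5 and then 94.2 and 78.2 (0.42 ± 0.36), where the median of the shared genes differed by 0.42.

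Tfeb and Tfe3, the regulators, can be followed across the antibodies. Tfeb was called for H3K27Ac (above) and, in the centred fit only, for p65 after LPS, where its scores were 30.9 and 23 in ctrl/ctrl and 38.9 and 50.5 in ctrl/LPS and then 74.2 and 91 in IL-4 PT/LPS. Its RNAPII-pS5 scores were 45.8 and 26.9 in ctrl/ctrl, 52.4 and 53.2 in IL-4 PT/ctrl, 10.5 and 13.3 in ctrl/LPS, and 4.2 and 14.2 in IL-4 PT/LPS. The samples with LPS all lay below those without, yet the difference of LPS was not called (-1.25 ± 0.59, limma adjusted p = 0.173). RNAPII-pS2 at Tfeb lay at 50.4 and 49.6, 55.1 and 64.5, 39.4 and 29.6, and 15.3 and 31 in the same order, also uncalled. A p65 region -16782 bp from 1 of its starts was listed in all 8 samples, at 11.2 and 14.3 in ctrl/ctrl and 22.3 and 31.7 in ctrl/LPS.

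Tfe3 was called for p65 with LPS only, at a centred difference of -1.43 ± 0.28 (limma adjusted p = 0.0122) that was 0.21 without centring. Its RNAPII-pS5 scores were 27 and 35.1 in ctrl/ctrl and 12 and 21.4 in ctrl/LPS (-0.62 ± 0.36, limma adjusted p = 0.259), its p65 scores were 22.3 and 35.2 and then 32.6 and 32.1, and its H3K27Ac signal was 354.5 and 373.6 in untreated and 337.7 and 327.3 in IL-4 samples (-0.12 ± 0.06, adjusted p = 0.207). No HDAC3 peak was listed at Tfe3. After 1 hr of IL-4 neither factor was called for p300, PU.1, HDAC1, HDAC2, or either polymerase form.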

How the data were processed

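ChIP-seq peak lists of 56 samples, 28 groups of 2, were analysed. Per the labels and the study's methods, the authors aligned reads to mm10 with BWA 0.7.10 and SAMtools 0.1.19, called peaks with MACS2 2.0.10 at a q-value of 0.01 or less and regions with HOMER 4.2, and removed blacklisted regions. The deposited peak scores are −log10 values of a p- or q-value, inferred from the values, and the deposited H3K27Ac values are a normalized tag signal. Depth is unknown, and no input control is stated.

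Scores of all peaks with the same gene name were summed per sample. A gene without a peak was set to the smallest score found for that antibody. Log2 values were centred, and genes listed in 2 or more samples were tested with limma 3.58.1 (R 4.3.3), with Benjamini-Hochberg adjustment over all genes and a threshold of 0.1. All groups of an antibody set shared 1 fit. The fit was checked on simulated data for RNAPII-pS5 with 1 hr of IL-4 and for p65. There, calls at genes with a peak in every sample were false less often than the threshold of 0.1 allows. The simulation gave all genes the same spread and changed few genes, all with a peak in every sample. The peak lists differ from it in both respects, so it does not give their error rate. How often calls are false in the peak lists, with or without missing peaks, was not tested. Calls at genes with missing peaks depend on the low score given to such peaks. The study describes its ChIP-seq replicates as biological, and the labels do not tie samples to mice, so p-values measure the spread between these samples. Deviations of samples with the same replicate number correlated at -0.0272 to 0.066, so the numbers were not used as pairs. Sequences were read with samtools 1.23.1, overlaps made with bedtools 2.31.1 and tables with pandas 2.3.3.

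The genes and lists were chosen with earlier results of these data known. Values per sample are given for called genes (the 5 with the smallest p where more were called), for the 3 genes with the highest control peaks per antibody, and for Tfeb and Tfe3. Other named values were chosen after they were seen. Alternatives were the peaks used, the highest peak in place of the sum, no centring, only genes with a peak in every sample, the upper 50% of peaks, a replicate block and leaving out each sample. Peaks within 2000 bp of a GENCODE vM21 start and missing peaks set after centring were added after seeing the data.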

Additional observations from a re-analysis of the deposited data

Results flagged for a closer look

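For 6 results the effect of 24 hr of IL-4 differed between cells with and without LPS by limma's interaction term. The log2 values depend on the low score given to missing peaks. For p65 they were -2.92 at Ctsk (adjusted p = 0.0142) and 1.34 at Gla (adjusted p = 0.0808). For RNAPII-pS2 they were 4.65 at Glb1 (adjusted p = 0.0155) and 5.28 at Scarb2 (adjusted p = 0.0139). For RNAPII-pS5 they were -2.38 at Gla (adjusted p = 0.0249) and 2.48 at Scarb2 (adjusted p = 0.0523). Every 1 of the 6 had at least 1 group with a sample without a peak, other than Scarb2 for RNAPII-pS5, which was listed in all 8 samples. That result kept its call in 7 of 16 alternatives.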

How the results depend on the processing

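Counts below are lysosomal genes called by limma, and differences are log2 values. Most counts for a changed setting or a left-out sample, here and above, stand without the share of all genes called in the same fit. Where no such share is printed, a count cannot be read as a result about the lysosomal genes. With peaks within 2000 bp of the start, the count was 7 for p65 with LPS, 0 and 1 for RNAPII-pS2 and RNAPII-pS5 with 1 hr of IL-4, 4 and 2 for RNAPII-pS2 and RNAPII-pS5 with 24 hr of IL-4, 6 for RNAPII-pS5 with IL-4 under LPS and 1 for the RNAPII-pS2 interaction. The sign turned for Man2b1 (H3K27Ac, 2.44), Ctsh and Lamp1 (p65 with LPS, 0.24 and 1.28), Ctsl, Gla, and Glb1 (RNAPII-pS2 with 24 hr of IL-4, -0.0245, -0.21, and 0.12), Ctsa and Scarb2 (RNAPII-pS5 with LPS, 0.33 and 1.16) and Scarb2 (RNAPII-pS5 with 24 hr of IL-4, 0.0117). Without intergenic peaks the count was 0 for RNAPII-pS2 with 1 hr of IL-4, 5 for RNAPII-pS2 with LPS, 5 for RNAPII-pS5 with IL-4 under LPS and 4 for the RNAPII-pS5 interaction, and the sign turned for Ctsh, Lamp1, and Psap (p65 with LPS, 0.60, 1.02, and 1.97), Ctsl (RNAPII-pS2 with 24 hr of IL-4, -0.15) and Scarb2 (RNAPII-pS5 with LPS, 0.31). Without centring the count was 7 for p65 with IL-4 under LPS, 5 for its interaction and 1 for RNAPII-pS2 with 1 hr of IL-4, and p65 with LPS turned for Ctsh (0.66), Ctsz (0.26), Lamp1 (0.34), Lipa (0.57), Psap (0.20), Tfe3 (0.21), and Tfeb (0.74). This follows from the shift that centring removes. For the other settings the cause was not tested.

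With only genes that had a peak in every sample, the count was 2 for p300, 0 for p65 with IL-4 under LPS, 0 for the p65 and RNAPII-pS2 interactions, 1 for RNAPII-pS2 with 1 hr and 4 with 24 hr of IL-4, 7 for RNAPII-pS5 with LPS and 1 for its interaction. With the highest peak it was 1 for the p65 interaction, 1 for RNAPII-pS2 with 1 hr of IL-4, 4 for the RNAPII-pS2 interaction and 0 for RNAPII-pS5 with IL-4 under LPS. With missing peaks set after centring it was 1 for HDAC3 and 1 for p65 with 24 hr of IL-4. With the upper 50% of peaks it was 4, 1, and 3 for HDAC1, HDAC2, and HDAC3, 1 for p65 with 24 hr of IL-4, 0 for its interaction, 1 for RNAPII-pS2 with 1 hr of IL-4, 6 for the RNAPII-pS2 interaction, 7 for RNAPII-pS5 with LPS and 2 with 24 hr of IL-4, and 16 of 63 p65 regions (all regions 39.8%) were listed in both ctrl/LPS samples and neither ctrl/ctrl sample. With a replicate block it was 1 for the p65 interaction, 0 for RNAPII-pS2 with 1 hr of IL-4 and 1 for RNAPII-pS5 with IL-4 under LPS. The replicate numbers share no more than a number.

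Leaving out each sample in turn gave 8 to 10 genes for H3K27Ac, 0 to 9 for p300, and 0 in every case for HDAC1, HDAC2, HDAC3, PU.1, and both polymerase forms with 1 hr of IL-4. The range was 5 to 13 for RNAPII-pS5 with LPS, 2 to 4 with 24 hr of IL-4, 1 to 3 under LPS and 1 to 2 for the interaction. For RNAPII-pS2 these were 4 to 10, 2 to 7, 1 to 4, and 2 to 4, for p65 12 to 17, 2 to 3, 0 to 3, and 0 to 3, and for p65 regions listed in ctrl/LPS and not in ctrl/ctrl 45 to 54. Of the differences called with all samples, none turned sign in these fits, and the call was lost in 158 of 544 fits. Differences not called with all samples were not followed in this way.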
